A study of Mus musculus with 13 samples.

Results

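The 10 genes described here encode the subunits of Polycomb repressive complex 2 (PRC2) and its best-known accessory proteins: Ezh2, Ezh1, Eed, Suz12, Rbbp4, Rbbp7, Jarid2, Aebp2, Mtf2 and Phf19. They were taken by symbol from the 25965 genes of the expression table and not by a cut on their values, although earlier results of these data were known. All 10 were present, and all 10 were among the 13406 genes expressed highly enough to be tested. The question was how the expression of the complex moved while female mouse embryonic stem cells (mESCs) differentiated, and whether it differed when Smarcc1 was depleted.

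PRC2 is the enzyme that methylates lysine 27 of histone H3, a mark of silenced developmental genes and of the inactive X chromosome. Ezh2 or its relative Ezh1 carries the catalytic domain, and neither is active without Eed, which binds the methylated lysine, and Suz12, the scaffold. Rbbp4 and Rbbp7 are histone-binding proteins that also serve other chromatin complexes. Accessory proteins attach to Suz12 in competing sets: Mtf2 and Phf19 are Polycomb-like proteins that bring the complex to CpG islands, whereas Jarid2 and Aebp2 form the other set and bind chromatin that already carries ubiquitinated histone H2A. In embryonic stem cells the complex holds lineage genes in check, and its accessory subunits are known for changing as cells leave pluripotency.

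RNA-seq was made from female F1 mESCs with FVB/NJ mothers and CAST/EiJ fathers, and the sources used here do not say whether 1 line or several were used. The cells were expanded in 2i medium and differentiated by weaning into DME HiHi medium, with retroviral hairpins added on day 2 and puromycin selection on day 3. A single library came from untransduced, undifferentiated cells (Day0). The other 12 came from days 4, 5, 6 and 7, each day with 1 library carrying a nonsilencing control hairpin (Nons), 1 carrying the hairpin Smarcc1.6 and 1 carrying the hairpin Smarcc1.7. By the labels all 3 groups shared the cross, the transduction and the selection, and differed in the hairpin. Nothing in the labels says that the days were separate cultures, so p-values measure only the spread between these libraries.

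Depth ran from 13993440 to 63548092 mapped reads per library, and the members were supported by 139 to 56831 reads each. Day0 and the 3 day 6 libraries stood apart from the rest: genes held 85.3 to 86.5% of their reads and 91.6 to 92.6% of those of the remaining 9, and processed pseudogenes took 1.51 to 1.73% of their gene reads against 0.327 to 0.436%. On day 6, 559 of the 13406 tested genes were shifted by 1 log2 unit or more in all groups, and 0 of the 10 members. At that share, 10 genes are too few to set the members apart from the rest. Rbbp7 on day 6 differed from the mean of days 5 and 7 by -0.92 in Nons, -0.42 with Smarcc1.6 and -0.67 with Smarcc1.7. Comparisons within a day stay inside one of these sets, and changes across days do not. Markers of mESCs were detected in every library, but most did not hold steady. Of 8 markers, 5 fell across the days and 6 were higher with the hairpins, whereas Pou5f1, which encodes Oct4, was not called in any comparison.

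The hairpins are shown because every comparison with Nons rests on them. Each produces a guide strand of 22 bases that pairs with the Smarcc1 messenger RNA, and the capitals mark guide bases 2 to 8, the seed.

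Smarcc1.6 guide: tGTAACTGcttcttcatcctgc
Smarcc1.7 guide: tTGCTCATcttcttccttctga

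The site of Smarcc1.6 was found at chr9:110177472-110177493 on the plus strand of mm10, in coding exon 13 of a 29-exon Smarcc1 transcript, and that of Smarcc1.7 at chr9:110173911-110173932, in coding exon 11. Both sites were present in 4 coding transcripts of the gene. Against the transcripts of the 10 members, the closest match to the Smarcc1.6 site had 7 to 9 mismatches depending on the member, and the closest match to the Smarcc1.7 site had 5 to 9, the lowest being in Ezh2. Smarcc1, a core subunit of the BAF chromatin remodelling complex, was lower in 8 of 8 same-day differences from Nons. Its log2 CPM was 9.10, 8.87, 8.28 and 7.89 in Nons on days 4 to 7, against 7.42, 7.40, 7.28 and 7.28 with Smarcc1.6 and 7.96, 7.78, 7.17 and 7.51 with Smarcc1.7. The log2 change over both hairpins was -1.06 ± 0.14 (SE; limma adjusted p = 0.0023).

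Across days 4 to 7 most members of the complex fell, as the plot of log2 CPM by day shows. Of the 10 members, 7 fell and 0 rose by the test of change per day, in a data set where 25.6% of all tested genes fell and 34.9% rose. The members that fell were Phf19, Jarid2, Suz12, Mtf2, Aebp2, Eed and Ezh2, the last by a call that most alternative settings lost. The 3 that were not called were Ezh1, Rbbp4 and Rbbp7. The median change of the 10 members was -0.30 log2 units per day, beside 0.04 over all tested genes. This fit takes the libraries of a day as separate although there were only 4 days, so its SEs and adjusted p-values can be too small.

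**Figure D1:**
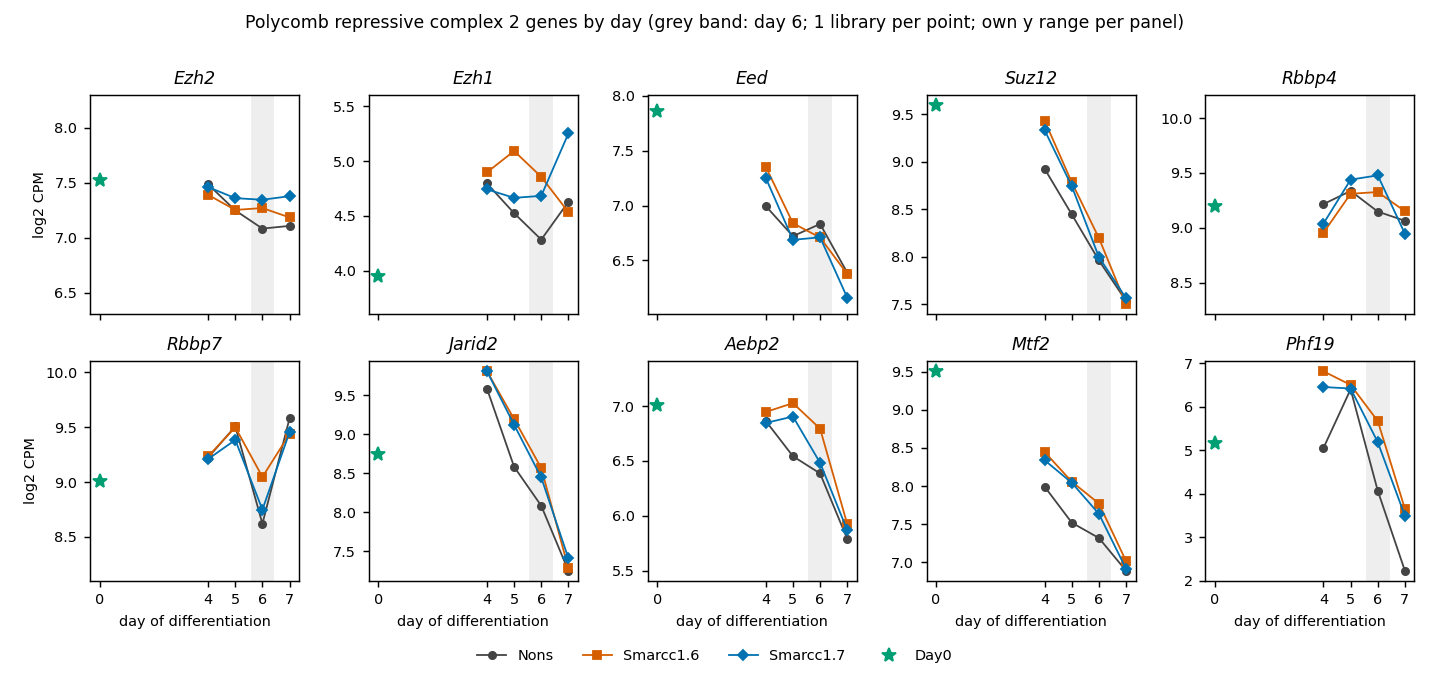
Log2 CPM (vertical axis, its own range in each panel) of the 10 genes against the day of differentiation, 1 library per point, with lines joining the libraries of Nons, Smarcc1.6 and Smarcc1.7 and a star for Day0; the grey band marks day 6. Suz12, Jarid2 and Mtf2 descended at every step in all 3 groups, Phf19 stood at least 1.12 log2 units lower in Nons than in the hairpin libraries on days 4, 6 and 7, and Rbbp7 dipped on day 6 in each group.

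Among the catalytic subunits, Ezh2 was nearly flat. Its log2 CPM was 7.52 at Day0, 7.49, 7.25, 7.08 and 7.11 in Nons on days 4 to 7, 7.39, 7.25, 7.27 and 7.18 with Smarcc1.6, and 7.46, 7.36, 7.35 and 7.38 with Smarcc1.7. Those 12 differentiating libraries spanned only 0.40 log2 units, the smallest span of any member, and the groups overlapped. The fall was 0.07 ± 0.03 per day (log2; SE; limma adjusted p = 0.045), close to the threshold. It was called in only 6 of 26 alternative settings, with adjusted p from 0.00088 to 0.55, and was lost among others with no filter on low values (0.11), without day 4 (0.55), without day 6 (0.065) and within Nons alone (0.24). Ezh2 was not called for the knockdown, with a log2 change of 0.10 ± 0.06 (limma adjusted p = 0.32; 95% interval -0.03 to 0.23).

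Ezh1, the catalytic subunit usual in resting and differentiated cells, had the lowest median level of the members per kilobase of exon. It stood at a log2 CPM of 3.96 at Day0, 4.80, 4.53, 4.28 and 4.63 in Nons, 4.90, 5.09, 4.86 and 4.53 with Smarcc1.6, and 4.74, 4.66, 4.68 and 5.25 with Smarcc1.7. All 12 differentiating libraries were above Day0. The day 7 Smarcc1.7 library was the highest of all, 0.62 log2 units above Nons of that day, whereas the day 7 Smarcc1.6 library differed from it by -0.09. The change per day was -0.02 ± 0.06 (limma adjusted p = 0.83), and the knockdown difference of 0.28 ± 0.13 was not called (limma adjusted p = 0.19; 95% interval -0.01 to 0.57).

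Scaled per kilobase of exon, Ezh2 was above Ezh1 in each of the 13 libraries. The within-library ratio was 13.2 at Day0 and 4.86 to 7.75 on days 4 to 7, with a median of 7.02 there. Taking the longest annotated transcript in place of all exons as the length moved these to 17.9 and to 6.59 to 10.5, so the size of the ratio depends on the length used and its direction does not. On day 6, whose libraries resemble Day0 in their share of reads in genes, Day0 minus the day 6 level was -0.33 for Ezh1 and 0.44 for Ezh2 in Nons, -0.90 and 0.25 with Smarcc1.6, and -0.73 and 0.18 with Smarcc1.7. On day 4, from the other set of libraries, Ezh1 was 0.79 to 0.94 log2 units above Day0 and Ezh2 differed from it by -0.13 to -0.04. There was 1 Day0 library, so these differences carry no test.

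The core partners Eed and Suz12 fell at different rates. Suz12 descended at every step in every group: its log2 CPM was 9.60 at Day0, then 8.93, 8.45, 7.96 and 7.53 in Nons, 9.43, 8.78, 8.20 and 7.50 with Smarcc1.6, and 9.33, 8.74, 7.996 and 7.56 with Smarcc1.7. Between day 4 and day 7 this was a decrease of 2.62-fold in Nons, 3.82-fold with Smarcc1.6 and 3.41-fold with Smarcc1.7. The fitted change was -0.57 ± 0.03 per day (limma adjusted p = 1.1e-06). The hairpin libraries began higher, by 0.51 and 0.41 on day 4, and met Nons on day 7, where the differences were -0.04 and 0.03. Averaged over days, the knockdown difference was 0.23 ± 0.07 with a limma adjusted p of 0.060, and it was higher in 7 of 8 same-day differences. In the test of a straight-line change of the knockdown difference with day, Suz12 had the lowest unadjusted p of the members (-0.16 ± 0.06 per day). Its limma adjusted p there was 0.80, from a fit that did not block by day.

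Eed decreased less. It was at 7.86 log2 CPM at Day0, 7.00, 6.72, 6.83 and 6.39 in Nons, 7.35, 6.84, 6.71 and 6.38 with Smarcc1.6, and 7.25, 6.69, 6.71 and 6.16 with Smarcc1.7. Day0 was above all 12 later libraries, and no group was the highest on every day: Smarcc1.6 led on days 4 and 5 and Nons on days 6 and 7. Eed fell by 0.27 ± 0.04 log2 units per day (limma adjusted p = 0.00031). Its knockdown difference was 0.03 ± 0.08 (limma adjusted p = 0.85; 95% interval -0.14 to 0.19), higher in 3 of 8 same-day differences.

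The histone-binding subunits had the highest median levels per kilobase of exon over days 4 to 7, and neither was called across the days. Rbbp4 was at 9.20 log2 CPM at Day0, 9.22, 9.34, 9.15 and 9.06 in Nons, 8.96, 9.31, 9.33 and 9.15 with Smarcc1.6, and 9.04, 9.44, 9.48 and 8.95 with Smarcc1.7. The X-linked Rbbp7 was at 9.01 at Day0, 9.22, 9.51, 8.62 and 9.58 in Nons, 9.23, 9.50, 9.05 and 9.44 with Smarcc1.6, and 9.21, 9.38, 8.75 and 9.45 with Smarcc1.7. Rbbp7 was lowest on day 6 in all 3 groups, in the libraries that stood apart in their share of reads in genes. Their changes per day were -0.01 ± 0.05 and 0.01 ± 0.08 (limma adjusted p = 0.89 for both), and without day 6 that of Rbbp7 was 0.08 ± 0.03 (adjusted p = 0.056). Knockdown differences were 0.01 ± 0.07 for Rbbp4 (95% interval -0.15 to 0.18) and 0.02 ± 0.07 for Rbbp7 (95% interval -0.14 to 0.18), with limma adjusted p of 0.92 and 0.90. Per kilobase of exon, Rbbp4 stood at 0.23 to 0.55 times the level of Rbbp7 on days 4 to 7 and at 0.38 times at Day0. The highest of these ratios were the 3 of day 6, at 0.48, 0.40 and 0.55. Rbbp4 overlaps Sync and Rbbp7 overlaps Txlng on the opposite strand, and 3.59% of the runs of 75 bases in Rbbp7 transcripts were also present in the processed pseudogene Gm6382; the other 9 members shared no such run with another gene.

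Jarid2, which carries a methylated lysine of its own that stimulates the enzyme, fell steeply. Its log2 CPM was 8.74 at Day0, 9.58, 8.58, 8.08 and 7.25 in Nons, 9.80, 9.19, 8.57 and 7.29 with Smarcc1.6, and 9.81, 9.12, 8.45 and 7.41 with Smarcc1.7. All 3 groups were above Day0 on day 4, by 0.84 to 1.06, and below it on day 7, both days being from the other set of libraries. For day 6, whose libraries resemble Day0 in their share of reads in genes, Day0 minus the day 6 level was 0.66 in Nons, 0.18 with Smarcc1.6 and 0.30 with Smarcc1.7. From day 4 to day 7 the decrease was 5.03-fold in Nons, 5.73-fold with Smarcc1.6 and 5.26-fold with Smarcc1.7, and the fitted change was -0.78 ± 0.04 per day (limma adjusted p = 8.7e-07). Without day 6 it was -0.81 ± 0.04.

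Aebp2, a zinc finger protein, stood at 7.01 log2 CPM at Day0, 6.86, 6.54, 6.39 and 5.79 in Nons, 6.95, 7.03, 6.79 and 5.92 with Smarcc1.6, and 6.85, 6.90, 6.48 and 5.87 with Smarcc1.7. Every library of day 7 was below every library of days 4, 5 and 6. It fell by 0.33 ± 0.05 per day (limma adjusted p = 0.00033). The knockdown difference was 0.20 ± 0.08, higher in 7 of 8 same-day differences, and was not called (limma adjusted p = 0.10).

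Both Polycomb-like subunits fell across the days. Mtf2 was at 9.51 log2 CPM at Day0, 7.99, 7.52, 7.32 and 6.89 in Nons, 8.45, 8.06, 7.77 and 7.01 with Smarcc1.6, and 8.34, 8.04, 7.63 and 6.91 with Smarcc1.7. It was the member furthest below Day0 on day 4, with log2 differences from Day0 of -1.52 in Nons, -1.06 with Smarcc1.6 and -1.17 with Smarcc1.7. Against day 6, whose libraries resemble Day0 in their share of reads in genes, Day0 was 4.56 times as high as Nons, 3.33 times Smarcc1.6 and 3.66 times Smarcc1.7. The fitted change was -0.43 ± 0.04 per day (limma adjusted p = 7.5e-06). Reads of Mtf2 may include some from Tmed5, which overlaps it on the opposite strand, since the sources used here do not state whether counting used the strand.

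Phf19 was the most variable member. Its log2 CPM was 5.18 at Day0, 5.06, 6.41, 4.07 and 2.23 in Nons, 6.82, 6.51, 5.68 and 3.66 with Smarcc1.6, and 6.46, 6.42, 5.19 and 3.49 with Smarcc1.7, a span of 4.59 log2 units over days 4 to 7. Nons was out of order on day 5, where it rose above its day 4 level and matched the hairpin libraries, and on the other days it was the lowest library by at least 1.12 log2 units. Day 7 was 7.10-fold below day 4 in Nons, 8.97-fold with Smarcc1.6 and 7.80-fold with Smarcc1.7. The fitted change of -1.04 ± 0.18 per day (limma adjusted p = 0.00050) was the steepest and least certain of the 10, and it became -0.57 ± 0.24 with day 7 left out (adjusted p = 0.075). Phf19 overlaps the gene model Gm13448 on the opposite strand.

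**Figure D2:**
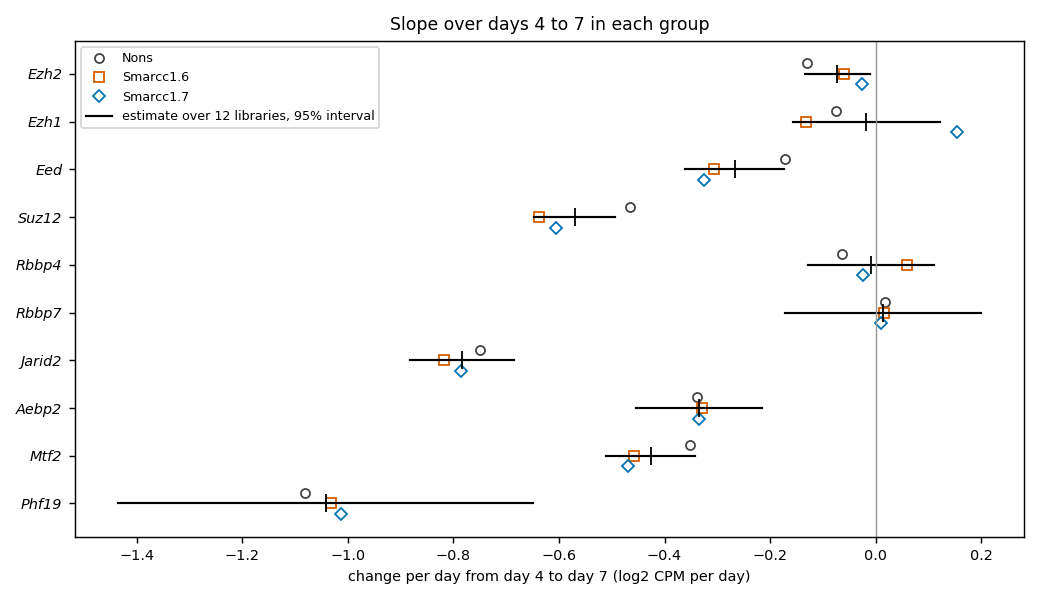
Change per day from day 4 to day 7 (horizontal axis, log2 CPM per day) for the 10 genes, with 1 open symbol for each group and a black bar for the estimate over the 12 libraries with its 95% interval. The intervals of Ezh1, Rbbp4 and Rbbp7 include 0, and the slopes of the 3 groups lay close together for Jarid2, at -0.75, -0.82 and -0.79.

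Without the day 6 libraries 6 of the 7 falling members were still called, all but Ezh2, with changes from -0.29 ± 0.04 for Eed to -1.09 ± 0.20 for Phf19. Over all tested genes, 8371 were called in either direction without day 6, beside 8114 with it. Within Nons alone, with 4 libraries, 3 members were called: Suz12, Jarid2 and Mtf2. Over all tested genes, 1620 were called in either direction within Nons. In bulk RNA, fewer cells of a type and less RNA per cell cannot be told apart, and this holds for every fall given here. Levels of several members were also correlated across libraries. Over the 12 libraries Pearson's r was 0.98 between Suz12 and Jarid2, 0.98 between Jarid2 and Mtf2 and 0.96 between Suz12 and Mtf2. It was -0.22 between Rbbp4 and Rbbp7 and 0.52 between Ezh2 and Ezh1. These libraries share the same 4 days, so the correlations describe the shared course of time and carry no test.

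The genes whose pattern over the 12 libraries was most like that of Jarid2, among all tested genes, were Rif1 (r = 0.993), Pias2 (r = 0.992) and Zfp532 (r = 0.991). For Ezh1 they were D17Wsu92e (r = 0.929), Btbd8 (r = 0.898) and Calcoco1 (r = 0.893). Shpk (r = 0.917), Ripply1 (r = 0.892) and Arhgap19 (r = 0.892) came closest to Ezh2. No test was made of these.

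Turning to the depletion of Smarcc1, the members called against Nons were 3 of the accessory subunits. Phf19, Mtf2 and Jarid2 were higher in the Smarcc1 hairpin libraries, and none of the catalytic, core or histone-binding subunits was called in either direction. Thus 3 of 10 members were called higher and 0 lower, beside 6.88% of all tested genes called higher and 4.77% lower. The same 3 members were higher in 8 of 8 same-day differences, beside 7.89% of all tested genes. The median knockdown change of the 10 members was 0.22 log2 units, beside -0.01 over all tested genes. The core subunit Suz12 lay just past the threshold (0.23 ± 0.07, limma adjusted p = 0.060). The accessory subunit Aebp2 was not called (0.20 ± 0.08, limma adjusted p = 0.10). Accessory and core subunits were not compared by a test, so the calls do not separate them.

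**Figure D3:**
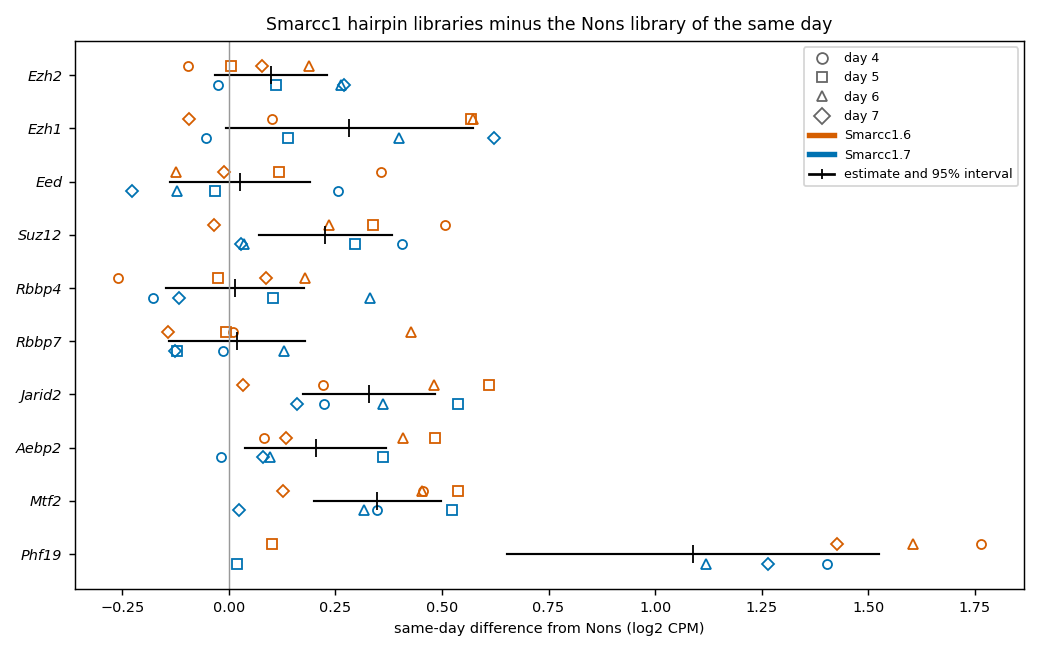
Difference between each Smarcc1 hairpin library and the Nons library of the same day (horizontal axis, log2 CPM) for the 10 genes, by hairpin (colour) and day (symbol), with a black bar for the estimate over both hairpins and its 95% interval. All 8 differences lay above 0 for Jarid2, Mtf2 and Phf19, and those of Phf19 on day 5 were 0.10 and 0.02 while the other 6 ran from 1.12 to 1.77.

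Phf19 showed the largest difference. On days 4, 5, 6 and 7 it was above Nons by 1.77, 0.10, 1.61 and 1.43 log2 units with Smarcc1.6 and by 1.40, 0.02, 1.12 and 1.27 with Smarcc1.7. Day 5 stood out from the rest, because Nons was high on that day. The fitted difference was 1.09 ± 0.20 (limma adjusted p = 0.0073), which is 2.13-fold in CPM. Mtf2 was above Nons by 0.46, 0.54, 0.45 and 0.13 with Smarcc1.6 and by 0.35, 0.52, 0.32 and 0.02 with Smarcc1.7, so its smallest differences were those of day 7. Its fitted difference was 0.35 ± 0.07 (limma adjusted p = 0.0095), or 1.27-fold. Jarid2 was above Nons by 0.22, 0.61, 0.48 and 0.03 with Smarcc1.6 and by 0.22, 0.54, 0.36 and 0.16 with Smarcc1.7, largest on days 5 and 6. Its fitted difference was 0.33 ± 0.07 (limma adjusted p = 0.0147), or 1.26-fold. These fits take both hairpin libraries of a day as separate, although they share the Nons library of that day. The differences of both hairpins also moved together over the days, so the SEs and adjusted p-values can be too small.

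These calls depended on the libraries of days 5 and 6. Without day 6, whose libraries stood apart, the differences were nearly the same, 1.00 ± 0.23 for Phf19, 0.34 ± 0.08 for Mtf2 and 0.30 ± 0.09 for Jarid2, but none was called (limma adjusted p = 0.061, 0.068 and 0.097), and the number of genes called fell from 1561 to 287. Without day 5, or without only the day 5 Nons library, Phf19 alone remained called, and without the day 6 Nons library Phf19 and Mtf2 did.

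Each hairpin was also compared with Nons on its own, with the same 4 Nons libraries in both comparisons. With Smarcc1.6, 3 of 10 members were higher, beside 5.59% of all tested genes: Phf19 by 1.22 ± 0.23, Mtf2 by 0.39 ± 0.08 and Jarid2 by 0.34 ± 0.09 (limma adjusted p = 0.010, 0.013 and 0.036). Without day 6 none of the 3 was called (adjusted p = 0.088, 0.096 and 0.20), nor were they when Smarcc1.6 and Nons were fitted without the Smarcc1.7 libraries (adjusted p = 0.090, 0.079 and 0.15). Over 24 alternative settings Phf19 was called in 22, Mtf2 in 18 and Jarid2 in 11. With Smarcc1.7, 0 of 10 members were called higher, beside 1.69% of all tested genes. The estimates there were 0.95 ± 0.23, 0.30 ± 0.08 and 0.32 ± 0.09 (limma adjusted p = 0.054, 0.066 and 0.075). An unadjusted p under 0.05 was found for 5 of 10 members, beside 2838 of all 13406 tested genes. The hairpins were then compared with each other. No member was called, nor any gene (0% of those tested; 530 genes had an unadjusted p under 0.05). The difference of Smarcc1.6 from Smarcc1.7 was 0.27 for Phf19 (95% interval -0.23 to 0.77), 0.09 for Mtf2 (95% interval -0.08 to 0.26) and 0.02 for Jarid2 (95% interval -0.17 to 0.21). Smarcc1 itself differed between the hairpins by -0.26 (95% interval -0.60 to 0.08). These intervals do not show that the hairpins act alike.

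A test of whether the knockdown difference changed in a straight line with the day called no member and no gene (0% of those tested). At an unadjusted p under 0.05 there were 745 genes, 1 of them a member, Suz12. The fit took the day as a number without a day block. It therefore cannot see a difference that is small on a single day, like that of Phf19 on day 5. For Phf19 the estimate was 0.06 log2 units per day with a 95% interval of -0.79 to 0.90. For Jarid2 it was -0.05 (95% interval -0.26 to 0.15) and for Mtf2 -0.11 (95% interval -0.28 to 0.05).

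The level of Jarid2 was also set against that of Mtf2 within each library, as a description with no test. Per kilobase of exon, Jarid2 was at 0.34 times the level of Mtf2 at Day0. On days 4, 5, 6 and 7 the ratio was 1.77, 1.23, 1.00 and 0.75 in Nons, 1.503, 1.29, 1.02 and 0.71 with Smarcc1.6, and 1.62, 1.24, 1.03 and 0.83 with Smarcc1.7. Jarid2 thus stood above Mtf2 on days 4 and 5 and below it on day 7 in every group. With the longest transcript as the length the ratios ran from 0.59 to 1.46, so the day on which it passes 1 depends on the length used. The median order of the members per kilobase of exon, on the log2 CPM scale over days 4 to 7, was Rbbp7 (7.77), Rbbp4 (6.05), Suz12 (6.02), Jarid2 (5.29), Mtf2 (5.19), Eed (4.78), Ezh2 (4.57), Aebp2 (3.37), Phf19 (3.10) and Ezh1 (1.82). The ranges over the 12 libraries, which pool the days, overlapped between each pair of neighbours except Rbbp7 with Rbbp4 and Ezh2 with Aebp2. Compared within each library, Suz12 was above Jarid2 in all 12, with either length. The remaining neighbours changed order between libraries, which leaves those places unresolved. With the longest transcript as the length, Ezh2 (5.83) came just after Suz12 (6.19) and above Mtf2 (5.68), Eed (5.67) and Jarid2 (5.51).

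The promoters of the 3 members called higher with the hairpins are shown for that shared call, although their differences were not largest on the same days: those of Jarid2 and Mtf2 were largest on day 5 and those of Phf19 smallest. They are the 250 bases before the annotated start site from RefSeq (GRCm38.p6), taken at the listed start nearest to the gene's 5′ end in the expression table; all 10 members matched by symbol. The capitals mark matches, on either strand, to GGGCGG (the GC box), CCAAT and the E2F-like octamers TTTCCCGC, TTTGGCGC, TTTCGCGC and TTTGCCGC.

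Jarid2, chr13:44730524-44730773, plus strand: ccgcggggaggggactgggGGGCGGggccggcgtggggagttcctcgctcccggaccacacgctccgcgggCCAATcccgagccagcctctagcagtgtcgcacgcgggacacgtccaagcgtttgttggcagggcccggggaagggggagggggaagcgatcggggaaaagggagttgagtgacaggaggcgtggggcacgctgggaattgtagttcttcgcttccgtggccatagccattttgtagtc
Mtf2, chr5:108065424-108065673, plus strand: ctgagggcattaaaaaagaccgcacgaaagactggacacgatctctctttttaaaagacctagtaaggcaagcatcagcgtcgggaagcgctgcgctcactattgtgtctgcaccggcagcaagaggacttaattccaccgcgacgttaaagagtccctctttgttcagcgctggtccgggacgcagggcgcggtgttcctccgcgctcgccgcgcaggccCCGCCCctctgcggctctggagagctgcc
Phf19, chr2:34913977-34914226, minus strand: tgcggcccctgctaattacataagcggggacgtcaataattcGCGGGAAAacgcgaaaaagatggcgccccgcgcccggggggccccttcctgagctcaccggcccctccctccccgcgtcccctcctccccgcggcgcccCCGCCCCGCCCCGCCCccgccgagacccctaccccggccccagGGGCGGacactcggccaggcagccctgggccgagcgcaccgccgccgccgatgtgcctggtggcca

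All 3 were rich in CpG, with 23 CG dinucleotides in Jarid2, 23 in Mtf2 and 31 in Phf19, against a median of 6 over the 32851 listed promoters of that length. The median of the 10 members was also 23, and Aebp2 had 1 at its outermost start. Each of the 3 held the GC box, 1 match in Jarid2, 1 in Mtf2 and 4 in Phf19. The same box was present in 6 of the 10 members and in 32.7% of all promoters. CCAAT was in Jarid2 and in 5 of 10 members, beside 33.8% of all promoters. An E2F-like octamer was found in Phf19 and Suz12, 2 of 10 members, beside 1.86% of all promoters. AAGGTCA, the half-site bound by Esrrb, was in none of the 10 and in 4.08% of all promoters. A match is a description of letters and not a site of binding.

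The remaining genes of the pathway were examined as lists. Of 5 further accessory subunits, 0 were called for the knockdown, although AU022751 (now Ezhip, an inhibitor of the enzyme) had a log2 change of 0.48 (limma adjusted p = 0.058) and E130012A19Rik (now Epop) 0.34 (adjusted p = 0.12). Both were higher with Smarcc1.6 on its own, by 0.66 (adjusted p = 0.017) and 0.50 (adjusted p = 0.043). Across the days 3 of the 5 fell, E130012A19Rik by 0.92 per day, AU022751 by 0.62 and Lcor by 0.43, and 1 rose, Phf1, another Polycomb-like protein, by 0.23. The median knockdown change of this list was 0.19.

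Enzymes that act on the same histone tail were not called for the knockdown. Kdm6a and Kdm6b, which remove the methyl mark, changed by -0.04 and 0.30 (limma adjusted p = 0.72 and 0.070). For Ep300 and Crebbp, which acetylate the same lysine, the changes were -0.14 and -0.23 (adjusted p = 0.17 and 0.057). The enzymes that methylate lysine 36, a mark that hinders PRC2, changed by -0.03 for Nsd1, -0.22 for Whsc1 (now Nsd2) and -0.10 for Setd2 (adjusted p = 0.81, 0.070 and 0.43). Across the days Kdm6a fell by 0.32 per day, Crebbp by 0.23, Nsd1 by 0.44 and Setd2 by 0.18, whereas Whsc1 rose by 0.24. Kdm6b and Ep300 were not called across the days.

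**Figure D4:**
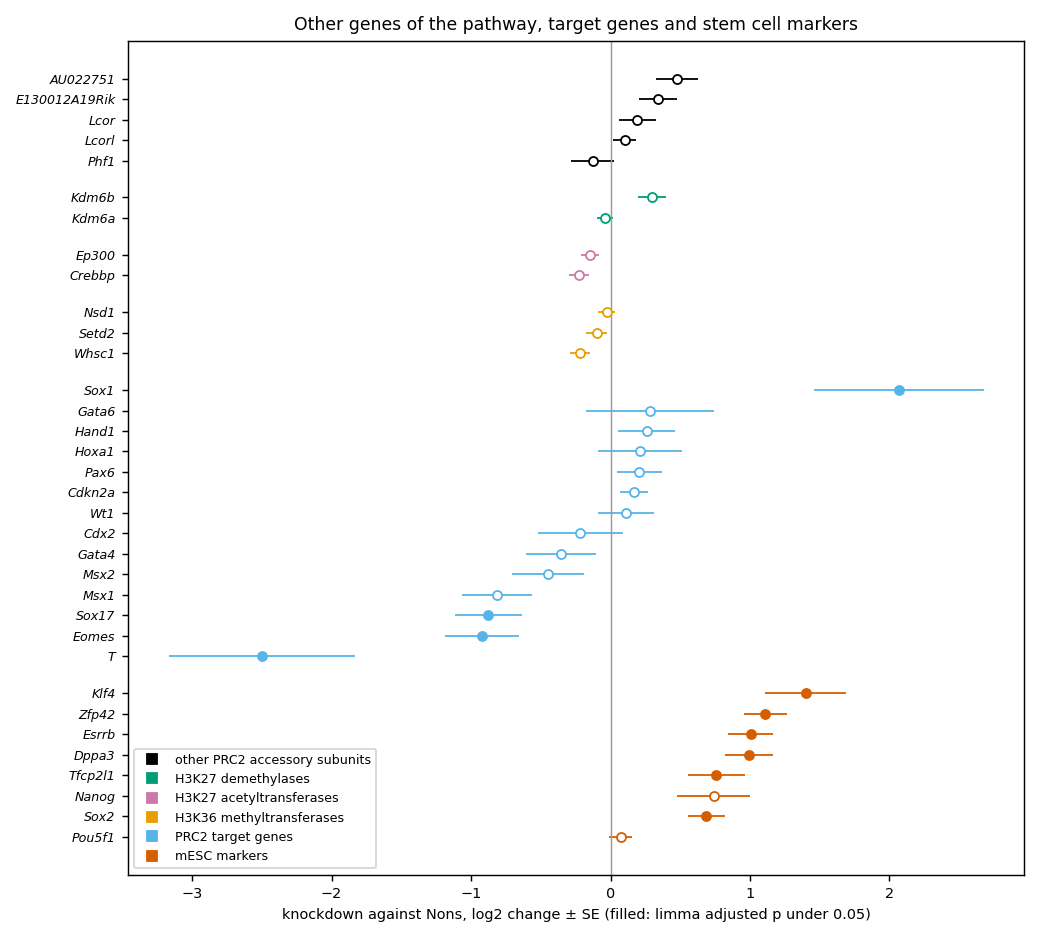
Log2 change between the Smarcc1 hairpin libraries and Nons (horizontal axis, estimate with its SE over 12 libraries) of other genes of the pathway, known targets and mESC markers, by list (colour), filled where limma's adjusted p was under 0.05. No accessory subunit or histone-modifying enzyme was called, the target genes went both ways, and 6 of 8 mESC markers were higher.

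Genes that PRC2 is known to silence in embryonic stem cells did not move in one direction. Of 24 listed, 14 were expressed highly enough to test. For the knockdown 3 were lower and 1 higher: T (Brachyury) changed by -2.50, Eomes by -0.92 and Sox17 by -0.88, all genes of mesoderm or endoderm, and Sox1, of neural ectoderm, by 2.07 (limma adjusted p = 0.034, 0.044, 0.037 and 0.048). Sox1 had only 4 to 68 reads per library in Nons, and on day 4 it was below Nons with both hairpins. T and Eomes were above Nons with both hairpins on day 4, and each was lower in 6 of 8 same-day differences. Sox17 was lower in 7 of 8. The median of the 14 was -0.05. Across the days 8 of the 14 rose and 0 fell, Gata4 by 0.86 per day, Msx2 by 0.75 and Cdx2 by 0.69 among them.

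Phf19, Mtf2 and Jarid2 were higher with the hairpins than in Nons, and so were most mESC markers. Of 8 markers, 6 were higher in the hairpin libraries: Klf4 by 1.40, Zfp42 by 1.11, Esrrb by 1.00, Dppa3 by 0.99, Tfcp2l1 by 0.76 and Sox2 by 0.69 (limma adjusted p from 0.0025 to 0.036). Nanog changed by 0.74 (adjusted p = 0.086) and Pou5f1 by 0.07 (adjusted p = 0.60). The summed level of the 8, in log2 CPM, ran from 10.12 to 10.78 in Nons, 10.44 to 11.40 with Smarcc1.6 and 10.13 to 11.12 with Smarcc1.7, and none of the 8 was at 0 in any library. Zfp42, Esrrb, Klf4, Sox2 and Tfcp2l1 also fell across the days, as the 3 members did. Any link between these markers and the members' differences from Nons was not tested.

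Markers of other cell types and of proliferation gave the following. Of 10 proliferation genes 0 were called for the knockdown, with a median of 0.07, and across the days 6 fell and 1 rose. Of 4 tested fibroblast markers 2 were higher, Col1a2 by 2.82 and Thy1 by 0.83. Krt8 was lower among 5 tested trophoblast markers (-0.50), Pecam1 higher by 1.18 among 3 tested endothelium markers, and Sox1 and Tubb3 higher among 4 neural markers. Uncalled markers that went against the called ones of their list were Pdgfra (-0.45), Tfap2c (0.37), Kdr (-1.10) and Nes (-0.41). Pecam1 and Tubb3 were highest at Day0, at a log2 CPM of 7.81 and 7.25, and so were present in the undifferentiated cells. The summed level of the fibroblast list ran from 3.47 to 6.71 in Nons, 5.18 to 7.58 with Smarcc1.6 and 4.54 to 7.57 with Smarcc1.7, in log2 CPM. Their part in the members' differences was not tested.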

How the data were processed

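The 13 libraries were TruSeq RNA libraries sequenced as 75-base paired-end reads, which the authors trimmed and aligned with tophat or hisat2 (the labels name TopHat2 2.0.12) to mm10, masked at the FVB/NJ and CAST/EiJ polymorphisms. Which library had which aligner, the annotation release and the strand setting are not given in the sources used here. The deposited values are log2 CPM per gene, made by the authors in Seqmonk. Every library's low values were whole multiples of 1 read within 0.02, with 0 reads written as 0.9, and this gave the depths. Reads outside genes remain in the denominator. Counting error is the only error that depth describes, since there were no molecular identifiers.

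Groups and days came from the sample titles. Genes whose log2 CPM averaged 0 or more across the 12 differentiating libraries were fitted with limma 3.58.1 in R 4.3.3 (empirical Bayes with a trend), the Benjamini-Hochberg adjustment ran over all 13406 genes, and an adjusted p under 0.05 was called. No pseudocount was added. Knockdown and hairpin differences were fitted with the day as a block. Each day holds 1 library of each group, and the titles state the day. The change per day was fitted with the group as a term. The change of the knockdown difference with day was fitted with knockdown or Nons, the day as a number and their product, without a day block. SEs and 95% intervals are from these fits, and a fold is 2 to the power of the log2 change. Counts were simulated at the mean levels of the same genes and the depths of the same libraries, for the knockdown comparison. There 93% of 100 genes changed by 0.5 log2 units and 100% of 100 genes changed by 1 were recovered, and 3.98% of the calls were false. The simulated libraries were independent, with no effect of day and the same variation beyond counting error for every gene. These rates therefore show that the fit works as written and are not error rates for the real libraries. A count model was not fitted, as the deposited unit is log2.

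Per-length levels used the union of exons in GENCODE M21 (GRCm38, which is mm10). Guide sequences came from the study's supplementary list of hairpins and were matched to GENCODE transcripts, and promoters came from RefSeq. Named genes were the members, Smarcc1, for each list up to 4 genes with the smallest adjusted p for the knockdown and any gene called, and the 3 genes most correlated with Ezh2, Ezh1 and Jarid2. The members, the lists and the tests were chosen with earlier results of these data known. Alternatives covered the filter, the scaling, thinning to 13993440 reads, an added 2 reads, the trend, the block, the samples fitted and leaving out each library or day. Allele-specific values were not analysed here.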

Additional observations from a re-analysis of the deposited data

Results flagged for a closer look

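Ezh1 on day 7 with the hairpin Smarcc1.7, at a log2 CPM of 5.25, lay far from the other 3 Smarcc1.7 libraries, which were at 4.66 to 4.74. Its gap to the nearest of them was 0.868 of the group's whole range. It was 1 of 30 groups of 4 libraries examined, and chance flags about 1 in 20. The libraries of a group are different days and not repeats of one condition.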

How the results depend on the processing

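In all, 1789 values were recomputed for 73 results, and 1655 were counted as kept. For 1411 log2 changes this meant the same direction and side of the threshold. The 88 sign changes (8 members, at most 0.53 log2 units) that were uncalled in both fits were counted among these. For 244 counts of called genes or members it meant only staying within a set ratio of the main count, so such counts could still change. Of 332 values for called members none reversed and 62 were no longer called. With no replicate block the knockdown called 4 genes and 0 members, Smarcc1.6 called 0 genes and 0 members, and Smarcc1.7 called 0 genes. The knockdown fitted on Smarcc1.6 and Nons alone called 57 genes and 0 members, and on Smarcc1.7 and Nons alone 0 genes and 0 members (2363 genes at an unadjusted p under 0.05). Within Nons alone the change per day called 1620 genes and 3 members. For Smarcc1.7, Phf19 became called (1 member) with no filter and when centred on the autosomal median, and the number of genes was 188 with a filter at 2 and 145 with no trend. With no filter 2 genes differed between the hairpins, and after thinning 1 gene was called for the change of the knockdown difference with day. The cause was not tested for any of these, beyond the fewer samples of some fits. Leaving out 1 library or day, the knockdown called 287 to 2003 genes and 0 to 4 members, Smarcc1.6 178 to 1694 genes and 0 to 4 members, and Smarcc1.7 1 to 1052 genes and 0 to 2 members. Suz12 joined the 3 called members for the knockdown without day 7 (adjusted p = 0.0251) and when centred on the autosomal median (adjusted p = 0.0414), and for Smarcc1.6 without day 7 (adjusted p = 0.0242). Aebp2 joined them for Smarcc1.6 without the day 4 Nons library (adjusted p = 0.0255) and when scaled to the reads in genes (adjusted p = 0.0497). The lone library of a reduced day is assumed to vary like the others. Depth limited Phf19 most, with 139 reads in Nons on day 7.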
